A study of Mus musculus with 10 samples.

Results

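The erythroid and megakaryocyte genes described here are 10 genes that mark the red cell and platelet branches of blood formation: Gata1, Klf1, Gfi1b, Epor, Car1, Car2, Alas2, Itga2b, Pf4 and Vwf. They were chosen by name, and a gene was read from a probe set whose annotation gives it as the sole symbol. Each of the 10 has 1 such probe set, among 19938 genes measured that way, and 9 of the 10 passed the level filter that left 15662 genes for testing. Pf4, with a mean log2 level of 5.91 against the filter's 6.23, is described but was not in the tests.

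The RNA came from c-Kit-positive cells of 5 independent primary mouse leukaemias driven by the fusion oncogene MLL-AF9 (labelled MA9), all carrying a Cre-ER transgene, a Cre recombinase that tamoxifen switches on. Lines 10949, 10950 and 10986 were Zfx fl/y, with a floxed allele of the X-linked transcription factor gene Zfx, and lines 10977 and 10980 were Zfx wt/y. They are called fl and wt lines here. Leukaemia cells from moribund mice were grown for 72 h in medium with IL-3, IL-6 and SCF and with either 10 nM 4-hydroxytamoxifen (4-OHT) or ethanol vehicle, after which c-Kit-positive cells were sorted. Each line had 1 array per treatment, so the fl groups held 3 arrays each and the wt groups 2 each, and the labels call fl cells given 4-OHT cko. Every group carries MLL-AF9 and Cre-ER, and both 4-OHT groups received the drug that activates Cre. The sources used here do not give the promoter that drives Cre-ER or the age of the mice, and each line is 1 leukaemia.

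GATA1 is the transcription factor on which red cell and megakaryocyte formation depends. It works with KLF1, which switches on globin and other red cell genes, and with GFI1B, a repressor needed in both branches. EPOR is the receptor for erythropoietin, ALAS2 starts haem synthesis in red cell precursors, and CAR1 and CAR2 are carbonic anhydrases of red cells. ITGA2B is the platelet integrin subunit CD41, PF4 a chemokine stored in platelet granules, and VWF the clotting protein that tethers platelets to vessel walls. Progenitors with myeloid MLL fusions usually resemble granulocyte and monocyte progenitors, in which this programme is low.

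Many erythroid genes carry GATA sites near their start, so the promoters of the members are shown where they hold such letters. RefSeq windows of assembly GRCm38.p6 were matched for 7 of the 10 members; Car1, Car2 and Vwf were not matched. The 250 bases before the start site were searched for AGATAA or TGATAA and for AGATAG or TGATAG on either strand. These letters were found in Gfi1b, Klf1, Epor and Alas2, 4 of the 7 windows, against 26.54% of 32851 promoter windows of the same length. The CACCC-type motif CCNCNCCC, to which KLF factors can bind and which shares no match with the GATA letters, was found in 5 of the 7, against 45.93% of all windows. The 4 windows run 5′ to 3′ toward the gene, with the GATA match in capitals, where TTATCT and TTATCA are AGATAA and TGATAA read from the other strand.
Gfi1b (chr2:28621983-28622232, minus strand): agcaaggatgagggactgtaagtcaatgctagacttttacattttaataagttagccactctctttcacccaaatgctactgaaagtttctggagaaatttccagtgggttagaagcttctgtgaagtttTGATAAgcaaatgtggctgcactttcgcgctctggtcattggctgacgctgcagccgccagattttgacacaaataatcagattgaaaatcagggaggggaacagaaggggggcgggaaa
Klf1 (chr8:84901732-84901981, plus strand): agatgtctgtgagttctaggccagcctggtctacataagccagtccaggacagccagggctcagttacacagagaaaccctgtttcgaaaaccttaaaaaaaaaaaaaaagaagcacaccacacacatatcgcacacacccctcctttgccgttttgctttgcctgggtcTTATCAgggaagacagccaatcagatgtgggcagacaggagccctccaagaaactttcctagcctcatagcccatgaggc
Epor (chr9:21963577-21963826, minus strand): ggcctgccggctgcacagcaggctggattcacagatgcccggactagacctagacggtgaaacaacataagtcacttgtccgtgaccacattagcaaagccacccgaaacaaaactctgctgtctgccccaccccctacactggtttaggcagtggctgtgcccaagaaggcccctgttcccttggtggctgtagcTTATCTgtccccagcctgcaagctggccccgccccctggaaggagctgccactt
Alas2 (chrX:150547167-150547416, plus strand): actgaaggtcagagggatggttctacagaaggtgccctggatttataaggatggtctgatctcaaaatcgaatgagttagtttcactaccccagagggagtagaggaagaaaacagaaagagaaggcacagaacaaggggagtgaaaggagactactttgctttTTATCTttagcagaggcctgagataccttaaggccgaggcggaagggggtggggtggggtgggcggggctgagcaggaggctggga

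The match began 120 bases before the start of Gfi1b, 80 before Klf1, 54 before Epor and 86 before Alas2. A match is a description of letters and not a measured binding site. Of these 4 genes, Gfi1b had signal above the background on every array and the other 3 did not, as the levels show.

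The vehicle array of line 10986 stood apart, with a mean correlation with the other arrays of 0.973 against 0.985 to 0.989, and across genes the response to 4-OHT in line 10977 correlated at -0.22 with that in line 10980, both wt. Zfx, the targeted gene, had log2 levels of 9.24 to 10.09 on the fl vehicle arrays and 9.98 to 10.07 on the fl 4-OHT arrays, and 4-OHT minus vehicle was -0.02, 0.35 and 0.79 in lines 10949, 10950 and 10986. The sources used here do not say whether that probe set covers the deleted part, so it checks no label.

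The members were first set against the array background. Olfactory receptor genes (Olfr), most of which blood cells are not expected to express, served as the reference, with 1027 such genes on each array. Their 95th percentile lay at a log2 level of 7.22 to 7.71 on 9 arrays and at 8.06 on the vehicle array of line 10986. Of the 100 values of the 10 members on 10 arrays, 18 lay above the Olfr 95th percentile of their own array. Gfi1b was above it on 10 arrays, Car2 on 5, Klf1 on 2 and Itga2b on 1. Gata1, Epor, Car1, Alas2, Pf4 and Vwf were above it on 0 arrays. Of all 19938 genes, 37.6% were above it on every array and 47.8% on none. A dim probe set may reflect a low transcript or a weakly binding probe, and the arrays cannot tell these apart.

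**Figure D1:**
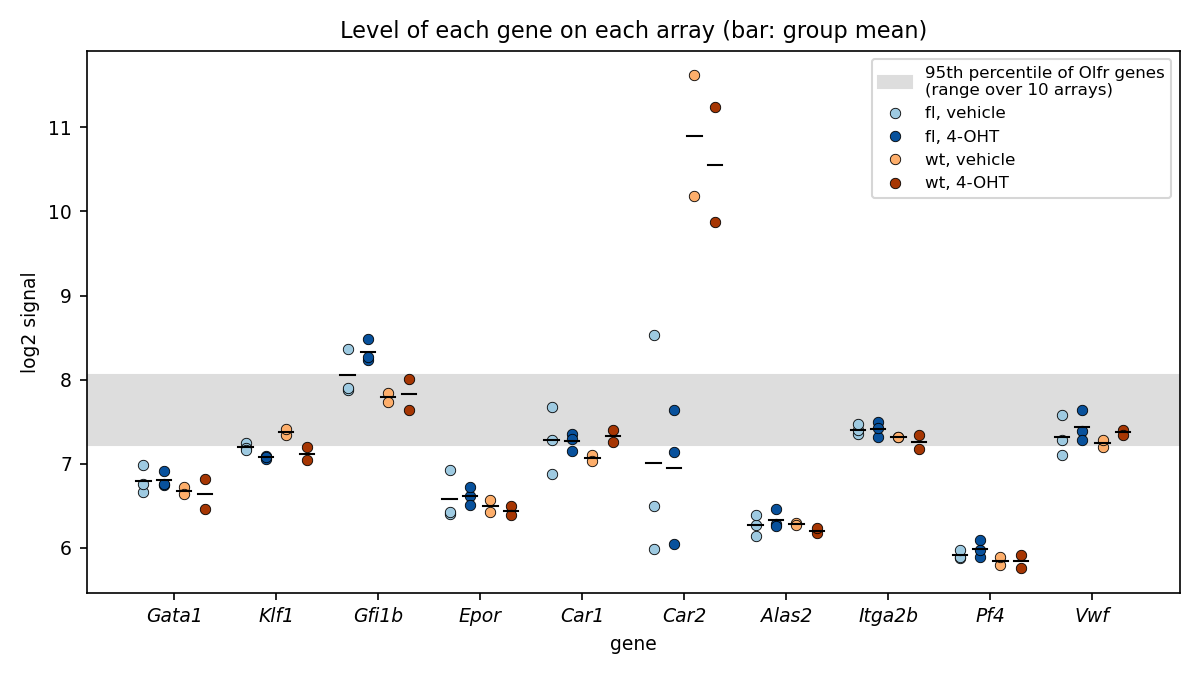
Log2 level of the 10 erythroid and megakaryocyte genes on each of the 10 arrays, by gene, with points marked by group and the grey band showing the range over arrays of the Olfr 95th percentile, 7.22 to 8.06. Gfi1b, at 7.64 to 8.48, lies within the band or above it, Car2 spreads from 5.99 to 11.62, and the other genes lie below the band or within it.

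Gata1, the master regulator, stood at log2 levels of 6.66, 6.76 and 6.99 on the fl vehicle arrays of lines 10949, 10950 and 10986. It stood at 6.74, 6.91 and 6.76 with 4-OHT in the same lines. In the wt lines 10977 and 10980 it stood at 6.72 and 6.64 with vehicle and 6.82 and 6.47 with 4-OHT. The vehicle and 4-OHT values overlapped in both genotypes, and the highest value was that of the vehicle array of line 10986. Its 4-OHT change in the fl lines was 0.00 (SE 0.12, n = 3 lines, limma adjusted p = 0.9998), with a 95% interval of -0.28 to 0.28. At background this interval describes the probe set's signal and sets no limit on a change of the transcript.

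Klf1, the red cell activator, had fl vehicle levels of 7.24, 7.19 and 7.16 and fl 4-OHT levels of 7.09, 7.06 and 7.08, in the same line order. Its wt levels were 7.34 and 7.41 with vehicle and 7.20 and 7.04 with 4-OHT. It was lower with 4-OHT in all 5 lines, which held for no other member, and the fl vehicle and fl 4-OHT arrays did not overlap. Of all genes tested, 14.5% were lower in every fl line and 24.5% in every wt line. The shares of genes lower in all 5 lines, or without such overlap, were not counted. The fitted difference was -0.12 (SE 0.10, n = 3) in the fl lines and -0.25 (SE 0.12, n = 2) in the wt lines, and neither passed (limma adjusted p = 0.730 and 0.9999). Its values exceeded the Olfr 95th percentile on 2 arrays only.

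Gfi1b, the repressor, was the member with signal above background throughout. Its fl vehicle levels were 7.88, 7.91 and 8.37, and its fl 4-OHT levels were 8.24, 8.27 and 8.48 in the same lines. Its wt levels were 7.84 and 7.73 with vehicle and 8.01 and 7.64 with 4-OHT. Vehicle and 4-OHT values overlapped across lines. Within lines it was higher with 4-OHT in each fl line, by 0.36, 0.37 and 0.11, while 4-OHT minus vehicle was 0.16 in wt line 10977 and -0.09 in wt line 10980. The mean change in the fl lines was 0.28 (SE 0.11, n = 3; a 1.21-fold difference), which did not pass (limma adjusted p = 0.354). Over the alternative analyses the change ranged from 0.24 to 0.44 and the adjusted p from 0.108 to 0.684.

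Epor, the erythropoietin receptor, had fl vehicle levels of 6.40, 6.42 and 6.93 and fl 4-OHT levels of 6.62, 6.72 and 6.51. In the wt lines it had 6.43 and 6.56 with vehicle and 6.50 and 6.39 with 4-OHT. The direction differed between lines: 4-OHT minus vehicle was 0.22, 0.30 and -0.43 for the fl lines in order and 0.07 and -0.18 for the wt lines. Alas2, the haem enzyme, varied less, from 6.14 to 6.46 over the 10 arrays, with changes of 0.01, 0.32 and -0.13 in the fl lines and -0.12 and -0.04 in the wt lines.

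Car1 had its lowest value, 6.88, on the fl vehicle array of line 10949 and its highest, 7.67, on the fl vehicle array of line 10986. With 4-OHT it was different by 0.48 in line 10949, 0.01 in line 10950 and -0.52 in line 10986. In the wt lines it was higher with 4-OHT by 0.30 and 0.22, without passing (0.26, SE 0.22, n = 2, limma adjusted p = 0.9999). The opposite directions of lines 10949 and 10986 left a mean change of -0.01 (SE 0.18, n = 3) in the fl lines.

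Of the platelet genes, Itga2b ranged from 7.18 to 7.50, Pf4 from 5.76 to 6.09 and Vwf from 7.10 to 7.64 over the 10 arrays, and their SD was 0.09, 0.09 and 0.16. Vwf differed with 4-OHT by 0.29 and 0.36 in lines 10949 and 10950 and by -0.30 in line 10986. In the wt lines it was higher by 0.21 and 0.05. Pf4 differed by 0.01, 0.20 and 0.00 in the fl lines, with a fitted change of 0.07 (SE 0.09, n = 3) when no level filter was applied. Neither Itga2b nor Vwf passed in any of the 5 comparisons.

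The background moved with line 10986. Gata1, Epor and Car1, 3 of the 10 members, had their highest level of all on its vehicle array, where the Olfr genes were highest too. From vehicle to 4-OHT the median of the Olfr genes changed by -0.29 in line 10986 and by 0.04 to 0.10 in the other 4 lines. Over the 10 members the median change was 0.07 for line 10949, 0.18 for line 10950 and -0.11 for line 10986, and 0.09 and -0.14 for the wt lines 10977 and 10980. Over all genes tested the medians were -0.01, 0.04 and -0.04 in the fl lines and 0.00 in both wt lines. With 4-OHT, 8, 8 and 3 of 10 members were higher in the fl lines and 7 and 2 of 10 in the wt lines. Over all genes tested the shares that were higher were 47.4%, 57.5% and 45.5% in the fl lines and 50.8% and 49.1% in the wt lines. The part of the array background in these differences was not tested.

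**Figure D2:**
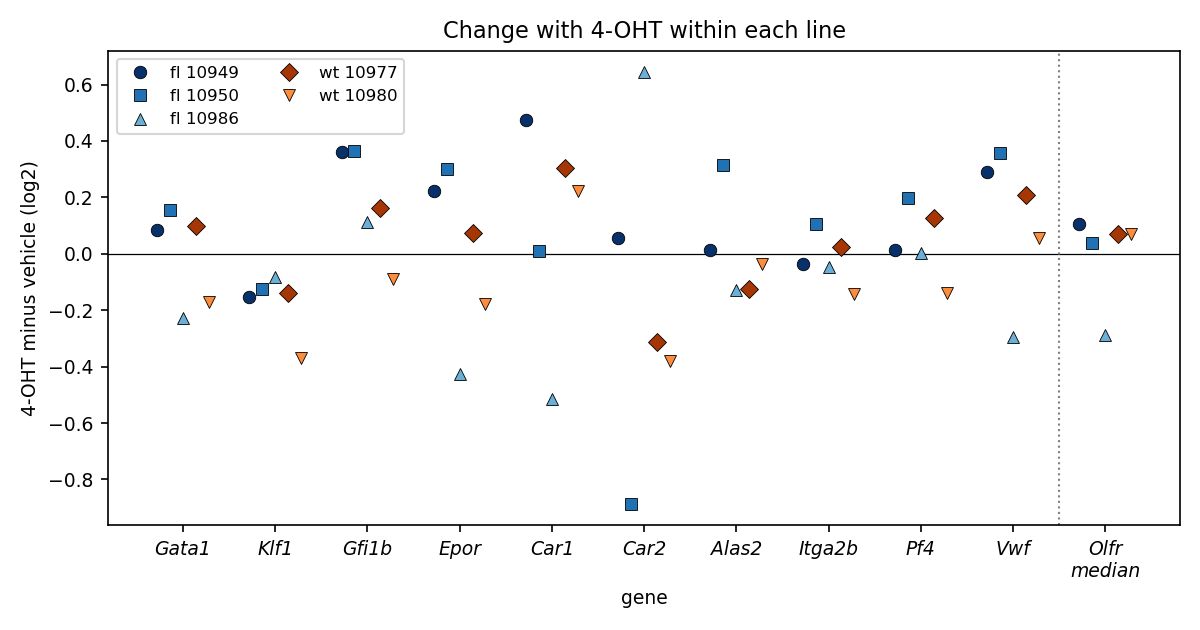
4-OHT minus vehicle, as a log2 difference, for each of the 10 members and for the median of the Olfr genes, with 1 point per line. Gfi1b is above 0 in all 3 fl lines at 0.11 to 0.37, Klf1 is below 0 in all 5 lines, and the points of line 10986 lie below 0 for Gata1, Epor, Car1 and Vwf as for the Olfr median at -0.29. In that line Klf1, Alas2 and Itga2b lie below 0 by less, at -0.08, -0.13 and -0.05, and Gfi1b, Car2 and Pf4 lie at 0.11, 0.64 and 0.00.

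The question of the design was whether Zfx deletion alters expression, which the fl lines address with 4-OHT against vehicle. Of 9 members tested, 0 passed an adjusted p of 0.05 in the fl lines, where 24 of 15662 genes did (0.153%). At an unadjusted p under 0.05, 1 of 9 members, Gfi1b, was counted, against 12.3% of all genes. Higher in every fl line was 1 of 9, again Gfi1b, against 14.6% of all genes, and lower in every fl line was 1 of 9, Klf1, against 14.5%. These shares lie near the background.

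In the wt lines, where 4-OHT acts on cells without a floxed allele, 0 of 9 members passed and 0 of all genes passed (0%). At an unadjusted p under 0.05 limma counted 0 of 9 members and 0.147% of all genes. Car1 and Vwf were higher in both wt lines, 2 of 9 against 24.3% of all genes, and Klf1, Car2 and Alas2 were lower in both, 3 of 9 against 24.5%. The difference of the 4-OHT effect between fl and wt lines gave 0 of 9 members and 0 of all genes (0%) at adjusted p 0.05, and 0 of 9 against 5.82% at an unadjusted p under 0.05. Gfi1b had a difference of 0.24 (SE 0.17, limma adjusted p = 0.915) with an interval of -0.16 to 0.65.

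Car2 was the exception among the members in how much it varied. It encodes carbonic anhydrase II, a fast enzyme that interconverts carbon dioxide and bicarbonate in red cells and many other cells. Its fl vehicle levels were 5.99, 8.53 and 6.50 in lines 10949, 10950 and 10986, and its fl 4-OHT levels 6.05, 7.64 and 7.14. Its wt levels were 10.19 and 11.62 with vehicle in lines 10977 and 10980 and 9.88 and 11.24 with 4-OHT. The values ran from 5.99 to 11.62, a signal of 63.7 to 3142, and the SD over the 10 arrays was at percentile 99.99 of the genes tested. All 4 wt arrays lay above all 6 fl arrays, with a gap of 1.35 between the lowest wt and highest fl array. All 4 wt arrays and 1 of the 6 fl arrays, the vehicle array of line 10950, lay above the Olfr 95th percentile, so folds of Car2 are lower bounds, with each fl array below that percentile set to it. The highest array was at least 21.0-fold above the lowest.

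The lines, in order of Car2 level, were 10980, 10977, 10950, 10986 and 10949. Both arrays of a line lay apart from those of its neighbours in this order, by 1.05, 1.35, 0.50 and 0.45 in turn. The vehicle and 4-OHT arrays of a line differed by 0.38, 0.31, 0.89, 0.64 and 0.06 in that same order. The gaps among the fl lines are thus no larger than the spread within line 10950. The change with 4-OHT itself had no shared direction in the fl lines, with 0.06, -0.89 and 0.64 in lines 10949, 10950 and 10986 and a fitted mean of -0.06 (SE 0.26, n = 3).

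**Figure D3:**
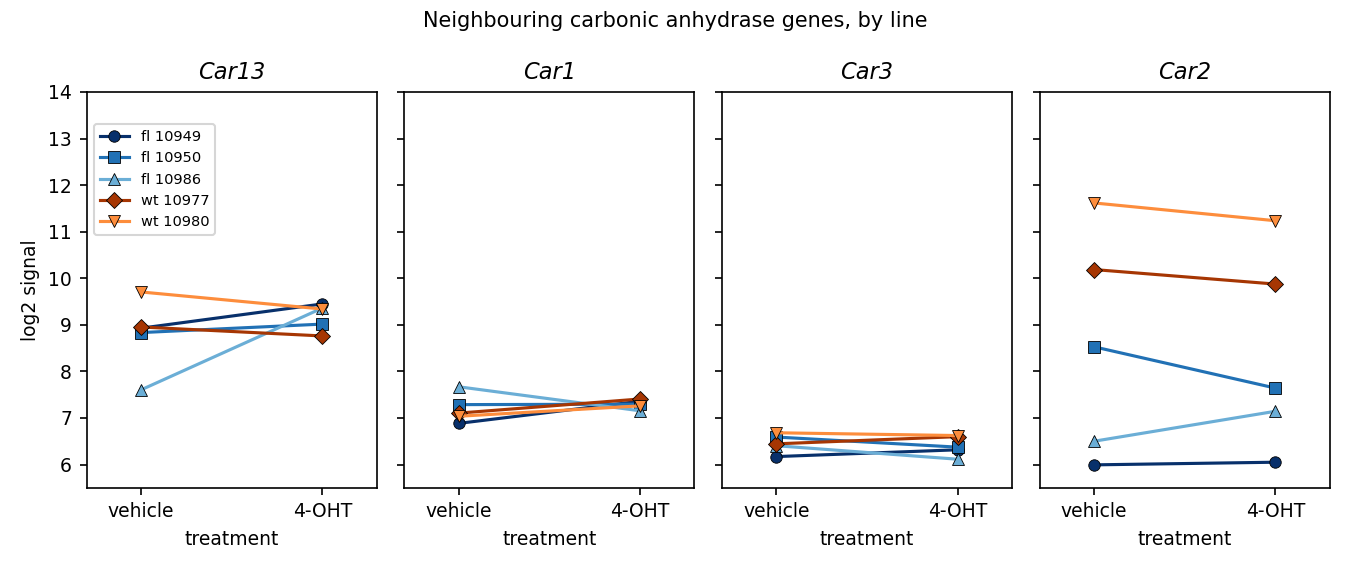
Log2 level of Car13, Car1, Car3 and Car2, which RefSeq lists in this order on the chromosome, with a line joining the vehicle and 4-OHT arrays of each cell line. Car2 separates the wt lines, at 9.88 to 11.62, from the fl lines, at 5.99 to 8.53, while Car1 and Car3 keep all arrays within 6.88 to 7.67 and 6.11 to 6.68.

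The fl and wt lines were then compared under each treatment. Under vehicle, fl minus wt for Car2 was -3.90 on the log2 scale (mean 7.01 ± 1.34 SD, n = 3, against 10.90 ± 1.01, n = 2), with a 95% interval of -5.63 to -2.16 for the measured difference, and the signal was at least 7.81-fold higher in the wt lines. It was the largest difference of the 15662 genes by size under vehicle, but did not pass (limma adjusted p = 0.235). Under 4-OHT it was -3.61 (6.95 ± 0.81, n = 3, against 10.56 ± 0.96, n = 2), with an interval of -5.35 to -1.87, and at least 8.15-fold higher in the wt lines, none of the 3 fl arrays being above the Olfr 95th percentile. It was again the largest by size and did not pass (limma adjusted p = 0.0849). Without the vehicle array of line 10986 the adjusted p was 0.0493 under 4-OHT, a call that the other analyses did not give.

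Averaged over both arrays of a line, Car2 stood at 6.98 ± 1.04 (SD, n = 3) in the fl lines and 10.73 ± 0.99 (n = 2) in the wt lines, a measured difference of -3.75, or at least 7.98-fold. The exact two-sided permutation test over lines gave p = 0.2, which is the smallest that 3 lines against 2 can give. Of 9 members, 1 had all fl arrays below all wt arrays, against 3.58% of all genes, and 0 of 9 had all fl arrays above all wt arrays, against 2.75%. In such sorted populations fewer cells of a type and less RNA per cell cannot be told apart. Differences between fl and wt lines are also differences between separate leukaemias, and genotype and line of origin cannot be told apart with so few lines.

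The other members differed less. Gfi1b was higher in the fl lines by 0.26 (SE 0.17, limma adjusted p = 0.534) under vehicle and by 0.51 (SE 0.17, limma adjusted p = 0.274) under 4-OHT. Over line means it stood at 8.19 ± 0.21 in fl lines and 7.81 ± 0.17 in wt lines, with an exact permutation p of 0.2, again the smallest possible. Of 9 members, 0 passed under vehicle, where 3 of 15662 genes did (0.0192%), and 0 passed under 4-OHT, where 101 did (0.645%). At an unadjusted p under 0.05 limma counted 1 of 9 under vehicle, Car2, against 9.83% of all genes, and 2 of 9 under 4-OHT, Car2 and Gfi1b, against 10.8%.

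**Figure D4:**
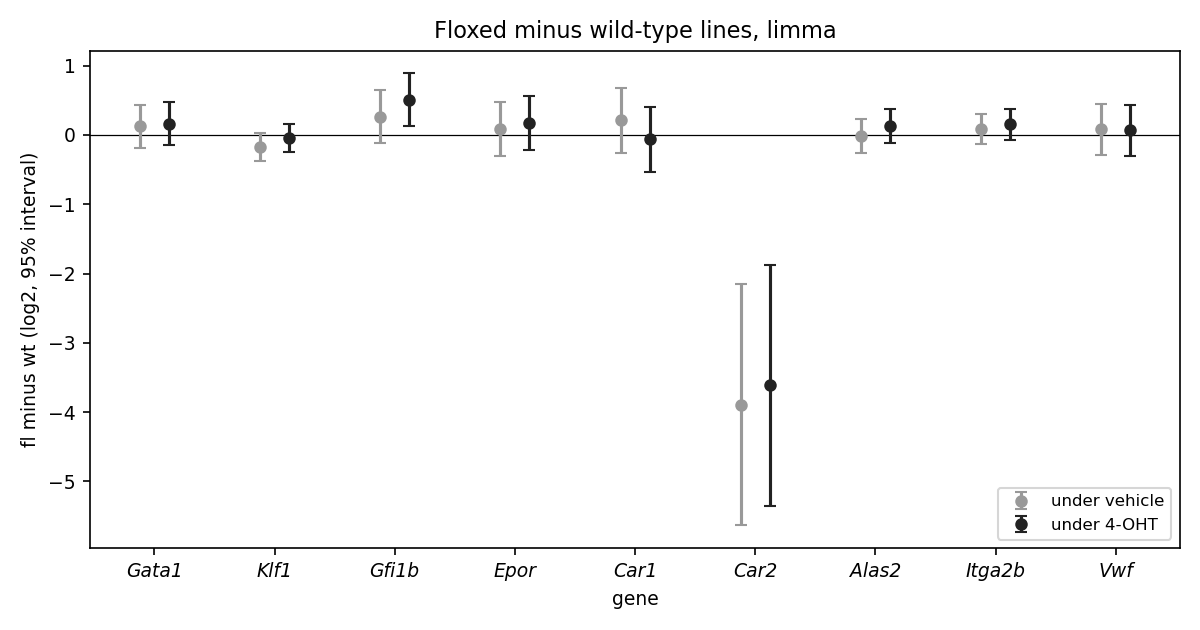
Fl minus wt difference on the log2 scale with its 95% interval for the 9 tested members, under vehicle and under 4-OHT. Car2 stands at -3.90 and -3.61 with intervals that stay below 0, Gfi1b at 0.26 and 0.51, and the intervals of the other members span 0.

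The neighbours of Car2 on the chromosome did not share its wt levels. RefSeq orders Rbis, Car13, Car1, Car3, Car2 and Gm9733, and Car13, a cytosolic carbonic anhydrase, ranged from 7.60 to 9.71 and was highest in the wt vehicle array of line 10980. Car3 and Gm9733 ranged from 6.11 to 6.68 and from 6.52 to 7.15, with neither group of lines set apart. The genes most like Car2 across the 10 arrays were Prkcb (r = 0.98, and 0.50 after removing line means), Glb1l (0.96 and 0.90) and St3gal1 (0.96 and 0.19). Those most like Gfi1b were Trib1 (0.98 and 0.93), Emilin2 (0.97 and 0.95) and Hcar2 (0.97 and 0.94). Car1, above the Olfr 95th percentile on 0 arrays, was most like Rbm46 (0.97 and 0.97), Olfr74 (0.96 and 0.98) and Ptprq (0.95 and 0.97). Like Car1, these genes were highest on the vehicle array of line 10986, where the Olfr genes were highest too. The arrays share lines, so these are descriptions without a test.

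Of 24 regulators that act with GATA1 and its branch, 23 were measured and 18 lay above the Olfr 95th percentile on every array, but Tal1 and Zfpm1, which bind GATA1 directly or in its complex, lay above it on none. None of the 23 passed in the fl lines with 4-OHT, and the median change was -0.07 against 0.00 over all genes tested. Lyl1, a TAL1 relative, stood at -0.60 (SE 0.11, limma adjusted p = 0.113) and Cbfa2t3, a corepressor of that complex, at -0.52 (SE 0.16, limma adjusted p = 0.241). Gfi1, the close relative of Gfi1b, had vehicle levels of 10.17, 10.00 and 10.04 in the fl lines. In the wt lines they were 10.29 and 10.66, a difference that did not pass. Under 4-OHT, Gfi1 was lower in the fl lines (fl minus wt -0.95, SE 0.16, limma adjusted p = 0.0436) while Gfi1b was 0.51 higher without passing. Without line 10980, 0 genes passed in that comparison, and with line 10949, 10950, 10986 or 10977 left out it was 7, 10, 39 or 51 genes.

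Genes of haem synthesis and iron uptake, the pathway Alas2 opens, had 12 of 16 measured genes above the Olfr 95th percentile on every array, and 0 of 16 passed in the fl lines with 4-OHT. Alas1, which starts haem synthesis outside red cells, stood at -0.97 (SE 0.21, limma adjusted p = 0.0905) for fl minus wt under 4-OHT. Hmox1, which breaks haem down, stood at 1.21 (SE 0.21, limma adjusted p = 0.0948) and Cpox, a late enzyme of haem synthesis, at 0.52 (SE 0.11, limma adjusted p = 0.125) for 4-OHT minus vehicle in the fl lines. In erythropoietin signalling, the pathway downstream of Epor, 11 of 13 measured genes were above the background on every array and 0 of 12 tested passed. Socs2, a feedback inhibitor, stood at 0.85 (SE 0.21, limma adjusted p = 0.166) and Pim1, a kinase induced by cytokines, at -0.37 (SE 0.16, limma adjusted p = 0.408). In fl lines 10949, 10950 and 10986, Socs2 changed by 0.33, 0.72 and 1.49 and Pim1 by -0.35, 0.03 and -0.80.

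Late red cell genes had 22 of 33 measured with a single-symbol probe set. The other 11, adult globins among them, were not analysed here. Of the 22, 18 were above the Olfr 95th percentile on no array, among them Slc4a1 and the embryonic globins Hba-x, Hbb-y and Hbb-bh1, while Gypc and Xk were above it on all 10. None of 16 tested passed in the fl lines with 4-OHT, where Rhd, a blood group protein, stood at 0.33 (SE 0.11, limma adjusted p = 0.295). Rhd too was above the Olfr 95th percentile on 0 arrays. Of 18 platelet genes measured, 6 were above the background on every array, and 0 of 15 tested passed in the fl lines with 4-OHT. Plek, a platelet and leukocyte protein, stood at 1.46 (SE 0.24, limma adjusted p = 0.0856) and F2rl2, a thrombin receptor, at 0.64 (SE 0.12, limma adjusted p = 0.111). In wt lines 10977 and 10980, Plek changed by 0.24 and -0.56 and F2rl2 by 0.49 and 0.05. For F2rl2, fl minus wt was 1.45 under vehicle and 1.82 under 4-OHT, without passing (limma adjusted p = 0.419 and 0.128). Under 4-OHT, P2rx1, an ATP receptor of platelets and other blood cells, was lower in the fl lines (fl minus wt -1.37, SE 0.22, limma adjusted p = 0.0401), a call lost without line 10980. Under vehicle P2rx1 did not pass, at 8.84, 8.58 and 8.73 in the fl lines and 9.24 and 10.04 in the wt lines. Other carbonic anhydrases gave 0 of 11 passing. For 4-OHT minus vehicle in the fl lines, Car13 stood at 0.82 (SE 0.28, limma adjusted p = 0.295). By line it was 0.52 (10949), 0.18 (10950) and 1.76 (10986). On the vehicle array of line 10986 its level was 7.60, below the Olfr 95th percentile of 8.06. By the same measure, Car5b, a mitochondrial form, stood at 0.45 (SE 0.13, limma adjusted p = 0.233), but was above the Olfr 95th percentile on 0 arrays. Of the 14 genes of this list, 10 were above it on none.

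Markers of other cell types moved beside these genes. In the fl lines with 4-OHT, 3 of 12 monocyte markers, Vcan, Irf8 and Ctss, and 1 of 13 granulocyte markers, Mmp8, rose, by 1.48, 0.93, 1.40 and 2.56 (limma adjusted p of 0.0143, 0.0373, 0.0461 and 0.0143). Without line 10949, 10950, 10977 or 10980 no gene passed in that comparison. Cebpe, a granulocyte transcription factor, stood at -0.70, -0.36 and -0.48 in the fl lines without passing. For fl minus wt under vehicle, Cebpe and Irf8 did not pass. Cebpe levels were 9.83, 9.79 and 9.82 in the fl lines and 10.16 and 10.26 in the wt lines. Irf8 levels were 9.06, 9.11 and 9.48 against 8.86 and 8.17. There 11 of 13 granulocyte markers were below 0, with a median of -0.38 against 0.03 over all genes tested. So were 8 of 12 monocyte markers, with a median of -0.46, unlike Irf8. For fl minus wt under 4-OHT, 9 of 13 granulocyte markers were below 0, with a median of -0.29 against 0.02. Of the monocyte markers 4 of 12 were, with a median of 0.11. In that comparison Cebpe was lower (-0.81, SE 0.11, limma adjusted p = 0.0218) and Irf8 was higher (1.56, limma adjusted p = 0.0436). These calls too were lost without line 10980. The summed signal of the monocyte list lay at 5836 to 9299 on the fl vehicle arrays, 9376 to 16395 on the fl 4-OHT arrays, 9746 to 11296 on the wt vehicle arrays and 7852 to 13103 on the wt 4-OHT arrays. That of the 10 members lay at 1190 to 1560, 1339 to 1563, 2327 to 4304 and 2181 to 3506 in the same order, the wt groups being higher through Car2. The mast cell, basophil and eosinophil list, of which Hdc was above the background on every array, summed to 1736 to 3429, 2060 to 4265, 2847 to 3434 and 2451 to 2932, and Cpa3 stood at 0.89 (SE 0.20, limma adjusted p = 0.143) in the fl lines. Endothelial cells also make VWF, and of their markers Cdh5, Kdr, Tek, Emcn, Esam and Cldn5 were above the background on no array. Tie1 was above it on 2 arrays, Eng on 3 and Pecam1, which blood cells share, on all 10. Lymphoid markers had 10 of 11 above it on none. The part of these other cell types in the members' values was not tested.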

How the data were processed

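Gene expression was measured on 10 biotin-labelled arrays of total RNA. The authors deposited 1 intensity per probe set and array, processed by RMA (per the submitters' processing notes) and held on a linear scale, as the values show. The sources used here give neither its software nor the genome build. Log2 was taken here of the deposited intensity.

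Of 35556 probe sets, 21789 had 1 gene symbol, 1621 several and 12146 none in the platform annotation. Of those with 1 symbol, 21698 matched RefSeq (GRCm38.p6). A gene took its brightest such probe set. Genes at or above a mean log2 level of 6.23, the 25th percentile, were tested. Arrays have no read depth, so the number of arrays and the signal over background limit the precision.

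4-OHT effects were tested with limma 3.58.1 (R 4.3.3) in a model with a fixed term per cell line and separate 4-OHT terms for fl and wt. Fl and wt lines were compared with the line as a random block (statmod 1.5.0, correlation 0.165). Tests were two-sided, with Benjamini-Hochberg adjustment over 15662 genes at 0.05. The pairing comes from the design, in which each line was cultured both ways. Across genes, the deviations of a line's arrays from their group means correlated at 0.78 (line 10949), 0.22 (10950), -0.06 (10986), 0.43 (10977) and 0.43 (10980). In data simulated on 15662 genes, the fl 4-OHT test recovered 58% of log2 changes of 1 and 95% of changes of 2. The fl minus wt test under vehicle recovered 73% and 97%, but its simulated arrays held no differences between lines. The real lines do differ, so 73% and 97% do not describe what that test recovers here. Labels do not say whether cultures were repeated, so p-values of the 4-OHT effect measure its spread between these lines. The fl minus wt p-values and intervals use all 10 arrays of 5 lines, with the correlation of 0.165 shared by all genes. Where the 2 arrays of a line are more alike than that, as for Car2, they understate the spread between lines.

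All members were named. Of every other list, up to 4 passing genes were named, or, with fewer than 2 passing, the 2 that changed most, and a selection of these is printed. Genes named for being above or on no array, and the neighbours of Car2, were chosen after their values were seen. The members and lists were chosen with earlier results of these data known. Alternatives covered the block, filter, centring, quantile normalization, probe sets, prior and leaving out each line.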

Additional observations from a re-analysis of the deposited data

How the results depend on the processing

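Of the 9 members tested, 0 passed in the 4-OHT comparisons of fl and wt lines, in their difference and in fl minus wt under vehicle, under every alternative run. In fl minus wt under 4-OHT, the range with arrays left out was 0 to 1, the 1 being Car2 without the fl vehicle array of line 10986 (-3.61, limma adjusted p = 0.0493), an alternative chosen after seeing the data. Without the replicate block the count of members was 0 in each comparison, as it was with a random block in the 4-OHT comparisons, so the pairing changed no call of a member. Car2 ranged from -4.66 to -3.18 under vehicle (adjusted p 0.107 to 0.899) and from -4.29 to -2.93 under 4-OHT (0.0493 to 0.876). All genes passing in the fl 4-OHT comparison numbered 24, and 83 with a random block, 8 without a level filter, 14 with the filter at the 50th percentile, 3 with centred arrays, 61 after quantile normalization, 440 without line 10986 and 0 without any other line. For the difference of the 4-OHT effect they numbered 0, and 1 with no block or a random block and 20 without line 10986. For fl minus wt under vehicle they numbered 3, and 0 with no filter, the 50th percentile filter, quantile normalization or without line 10949, 10950 or 10980, 15 without line 10977 and 6 without the vehicle array of line 10986. For fl minus wt under 4-OHT they numbered 101, and 66 with centred arrays and 167 without that array.

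Signs that turned were all of changes that did not pass, and the causes were not tested. In the fit with neither the block nor that vehicle array, Car1 in the fl lines stood at 0.18 and the difference of the 4-OHT effect for Vwf at 0.11. With a line or that array left out, 4-OHT minus vehicle in the fl lines ranged from -0.0724 to 0.1197 for Gata1, -0.1027 to 0.262 for Epor, -0.2528 to 0.2425 for Car1, -0.4148 to 0.35 for Car2, -0.0576 to 0.1651 for Alas2, -0.0421 to 0.0341 for Itga2b and -0.0026 to 0.3233 for Vwf. In the wt lines it ranged from -0.1701 to 0.0978 for Gata1, -0.0902 to 0.1626 for Gfi1b, -0.1769 to 0.0729 for Epor and -0.1434 to 0.024 for Itga2b. The difference of the 4-OHT effect ranged from -0.0939 to 0.174 for Gata1, -0.0507 to 0.314 for Epor, -0.068 to 0.6968 for Car2, -0.0172 to 0.1502 for Itga2b and -0.1343 to 0.1916 for Vwf. Fl minus wt under vehicle ranged from -0.1168 to 0.1799 for Epor, -0.0165 to 0.4073 for Car1, -0.0978 to 0.0443 for Alas2 and -0.0906 to 0.1881 for Vwf. Under 4-OHT it ranged from -0.0134 to 0.3383 for Gata1, -0.1206 to 0.0351 for Klf1, -0.1376 to 0.0101 for Car1 and -0.0377 to 0.1433 for Vwf.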
